A study of Mus musculus with 6 samples.

Results

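Medium spiny neurons are the projection neurons of the striatum, and 8 genes with high expression in them were followed here in whole-brain RNA-seq of 12-week-old mice: *Drd2*, *Adora2a*, *Ppp1r1b*, *Penk*, *Tac1*, *Rgs9*, *Rasd2* and *Pde10a*. They were taken by gene symbol from a table of 37310 genes, and all 8 were found. The brains came from male C57BL/6 mice of 2 genotypes, *Adar1* E861A/E861A *Ifih1*-/- and *Adar1*+/+ *Ifih1*-/-, with 3 libraries each. The E861A point mutation removes the RNA editing activity of ADAR1. *Ifih1* encodes the double-stranded RNA sensor MDA5 and was absent from every mouse, the controls included, so no animal with intact MDA5 was part of the comparison. The mutation is carried in every cell, and whole brain mixes the striatum with all other regions. Fewer medium spiny neurons, less RNA per neuron and a change in other cells that express the same genes cannot be told apart in such samples.

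Medium spiny neurons use GABA and divide into a pair of populations. Neurons of the direct pathway carry the D1 dopamine receptor and make substance P and dynorphin, and those of the indirect pathway carry the D2 dopamine receptor and an adenosine receptor and make enkephalin. Dopamine acts on both through cAMP, which D1 receptors raise and D2 receptors lower. The cAMP signal then controls protein kinase A, its substrate DARPP-32 and the transcription of neuropeptide genes.

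None of the 8 genes differed between genotypes beyond the spread of the libraries. The estimated differences ran from a log2 fold change of -0.067 for *Tac1* to 0.076 for *Pde10a*, where positive values are higher in *Adar1* E861A/E861A brain. Of the 8 estimates, 4 were positive. All 8 genes passed the expression filter, and 0 passed an adjusted p of 0.05 in edgeR's quasi-likelihood test. Over the 13649 genes tested, 0.506% passed, 0.410% with a higher and 0.0952% with a lower level in the mutant. The count was also 0 at an unadjusted p of 0.05 (9.01% of all tested genes) and by the adjusted p of DESeq2, limma-voom and edgeR's likelihood ratio test. The CPM ranges of the genotypes overlapped for 8 of 8 members, whereas they did not overlap for 13.8% of all tested genes.

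The libraries held 26853488 to 38076753 counts, and the 8 members together received 15284 to 22657 of them. Levels are given as CPM, the count scaled to the library's total count, and ± marks the SD over 3 libraries unless an SE is named. The study describes the libraries of a genotype as biological replicates. Markers of adult brain were present in each library, among them the myelin gene *Mbp* at 1686 to 1745 CPM and the synaptic gene *Snap25* at 1719 to 1800 CPM. Pituitary genes stood apart in *Adar1* E861A/E861A replicate 1, where the 6 listed genes summed to 440 CPM against 1.97 to 3.64 CPM in the other libraries. With that library left out, 0 of the 8 members were called.

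The promoters of the *Tac1* neuropeptide gene and the *Drd2* receptor gene are shown because the first holds a variant of the cAMP response element and the second holds GC boxes and no such element. RefSeq promoter windows were matched for 5 of the 8 members (*Drd2*, *Tac1*, *Rgs9*, *Rasd2* and *Pde10a*, the last with more than 1 start), and each was found once in NCBIM37, the genome build of the counts. The 250 bases before the start were searched on both strands for the full cAMP response element TGACGTCA, its variant TGCGTCA, the GC box GGGCGG and the TATA box TATAAA, motifs that do not contain each other. Of the 5 members searched, only *Tac1* held the variant, 199 to 193 bases before the start, and 1.75% of all 32851 mouse promoter windows hold it. No window was matched for *Penk*, the other neuropeptide gene of the members. The full element was in none of the members' windows and in 1.55% of all windows. A GC box was found in *Drd2*, *Tac1*, *Rgs9* and *Pde10a*, and in 32.7% of all windows. The TATA letters were in the *Rgs9* window, 195 to 190 bases before the start, and in 12.4% of all windows. The *Tac1* window lies on the plus strand at chr6:7504811-7505060, and capitals mark the cAMP response element variant. Starts are those of RefSeq and can differ from the gene coordinates given below, which are from GENCODE. The *Drd2* window ends before its GENCODE start of 49148732, and the *Pde10a* windows lie inside the GENCODE gene. The *Drd2* window lies on the plus strand at chr9:49148258-49148507, and capitals mark the GC box on either strand.
Tac1: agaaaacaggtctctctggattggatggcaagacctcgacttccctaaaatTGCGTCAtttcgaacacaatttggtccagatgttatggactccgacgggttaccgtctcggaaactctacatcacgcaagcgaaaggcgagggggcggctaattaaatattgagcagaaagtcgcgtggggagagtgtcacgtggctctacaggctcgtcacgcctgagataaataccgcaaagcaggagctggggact
Drd2: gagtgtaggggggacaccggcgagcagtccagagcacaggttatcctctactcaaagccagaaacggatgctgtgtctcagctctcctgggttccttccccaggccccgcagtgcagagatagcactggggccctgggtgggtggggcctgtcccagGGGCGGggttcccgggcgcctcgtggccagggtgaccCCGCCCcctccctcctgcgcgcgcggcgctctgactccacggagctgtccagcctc

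The receptors of the indirect pathway were the scarcest members. *Drd2* encodes the D2 dopamine receptor, which lowers cAMP (ENSMUSG00000032259; chromosome 9, 49148732 to 49216282). It was at 18.0, 18.1 and 16.2 CPM in *Adar1* E861A/E861A replicates 1 to 3 and at 16.3, 18.8 and 18.7 CPM in *Adar1*+/+ replicates 1 to 3. One library of each genotype was low, E861A/E861A replicate 3 and *Adar1*+/+ replicate 1, and the others lay close together. The means were 17.4 ± 1.09 and 18.0 ± 1.40 CPM (n = 3 each), and the log2 fold change was -0.041 ± 0.077 (SE; adjusted p 0.909). The 95% interval of the difference ran from -13.4% to 9.11% (log2 -0.21 to 0.13).

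*Adora2a* encodes the adenosine receptor of the indirect pathway, which raises cAMP in the same neurons (ENSMUSG00000020178; chromosome 10, 74779688 to 74797533). The mutant libraries held 14.1, 14.6 and 13.6 CPM. The control libraries held 12.9, 14.3 and 15.8 CPM and so enclosed all the mutant values. Its mean was 14.1 ± 0.46 CPM in the mutant and 14.3 ± 1.47 CPM in the control (n = 3 each). The log2 fold change was -0.021 ± 0.084 (SE), with an adjusted p of 0.961 and a 95% interval from -0.20 to 0.16.

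Of the neuropeptide genes, *Penk* marks the indirect and *Tac1* the direct pathway among medium spiny neurons. *Penk* encodes the precursor of the enkephalins (ENSMUSG00000045573; chromosome 4, 4060678 to 4065966). It was present at 82.9, 87.0 and 78.8 CPM in mutant libraries and at 85.0, 85.4 and 85.3 CPM in control libraries. The control values were almost equal and fell inside the range of the mutant values. The means of 82.9 ± 4.12 and 85.2 ± 0.19 CPM (n = 3 each) gave a log2 fold change of -0.037 ± 0.050 (SE) and an adjusted p of 0.860. The 95% interval of the difference ran from -9.55% to 5.01% of the control level (log2 -0.14 to 0.071).

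*Tac1* encodes the precursor of substance P and neurokinin A (ENSMUSG00000061762; chromosome 6, 7505071 to 7512973). Its values were 20.9, 23.0 and 20.6 CPM in the mutant and 21.9, 22.6 and 23.2 CPM in the control. The mutant libraries of replicates 1 and 3 were the lowest of the 6, while replicate 2 was the second highest. The means were 21.5 ± 1.27 and 22.6 ± 0.64 CPM (n = 3 each). *Tac1* had the most negative estimate of the members, with -0.067 ± 0.066 (SE) on the log2 scale, an adjusted p of 0.803 and a 95% interval from -0.21 to 0.075. The ratio of *Penk* to *Tac1* counts within a library does not depend on depth. In whole brain it includes any counts from outside the striatum, so it is not a ratio of the pathways. It was 3.96, 3.79 and 3.82 in mutant libraries and 3.87, 3.77 and 3.67 in control libraries. The ranges overlapped. The mutant ratio was the higher one in 3 of 3 pairs of the same replicate number, but the numbers are not known to pair the libraries. The ratio was not tested.

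The enzymes and regulators downstream of the receptors are shared by both pathways. *Ppp1r1b* encodes DARPP-32, an inhibitor of protein phosphatase 1 once protein kinase A has phosphorylated it (ENSMUSG00000061718; chromosome 11, 98209718 to 98219110). It was measured at 74.3, 78.4 and 68.4 CPM in the mutant and at 72.0, 78.8 and 69.5 CPM in the control. Replicate 2 was the highest library of each genotype. The means were 73.7 ± 5.004 and 73.4 ± 4.79 CPM (n = 3 each). The log2 fold change was 0.0075 ± 0.064 (SE), the smallest in size of the members, with an adjusted p of 0.984 and a 95% interval from -0.13 to 0.15.

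*Pde10a* encodes a phosphodiesterase that breaks down cAMP and cGMP (ENSMUSG00000023868; chromosome 17, 8718237 to 9179513). The mutant libraries held 263, 255 and 254 CPM. The control libraries held 221, 254 and 258 CPM. A single control library, replicate 1, was lower than the rest, and the other 5 lay between 254 and 263 CPM. The means were 257 ± 4.87 and 244 ± 20.4 CPM (n = 3 each). The log2 fold change of 0.076 ± 0.059 (SE; adjusted p 0.735) had a 95% interval from -0.050 to 0.20, which in percent reached 15.1% higher. Without *Adar1*+/+ replicate 1 it was 0.0027.

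*Rgs9* encodes a regulator that shortens G protein signalling from dopamine receptors (ENSMUSG00000020599; chromosome 11, 109086669 to 109159443). Mutant libraries gave 58.7, 53.8 and 56.2 CPM and control libraries 55.5, 54.2 and 57.5 CPM. The mutant held both the highest and the lowest of the 6 values. With means of 56.2 ± 2.43 and 55.7 ± 1.66 CPM (n = 3 each), the log2 fold change was 0.014 ± 0.049 (SE), with an adjusted p of 0.957 and a 95% interval from -0.091 to 0.12.

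*Rasd2* encodes Rhes, a small GTP-binding protein enriched in the striatum (ENSMUSG00000034472; chromosome 8, 77737843 to 77748012). It was at 67.6, 69.6 and 61.1 CPM in the mutant and 61.3, 66.9 and 67.9 CPM in the control. As for *Drd2*, mutant replicate 3 and control replicate 1 were the lowest libraries. The means of 66.1 ± 4.40 and 65.4 ± 3.54 CPM (n = 3 each) gave a log2 fold change of 0.018 ± 0.061 (SE), an adjusted p of 0.955 and a 95% interval from -0.11 to 0.15. Exact two-sided permutation tests of the CPM values gave p from 0.3 for *Tac1* to 1 for *Ppp1r1b*, in a design whose smallest p is 0.1.

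**Figure D1:**
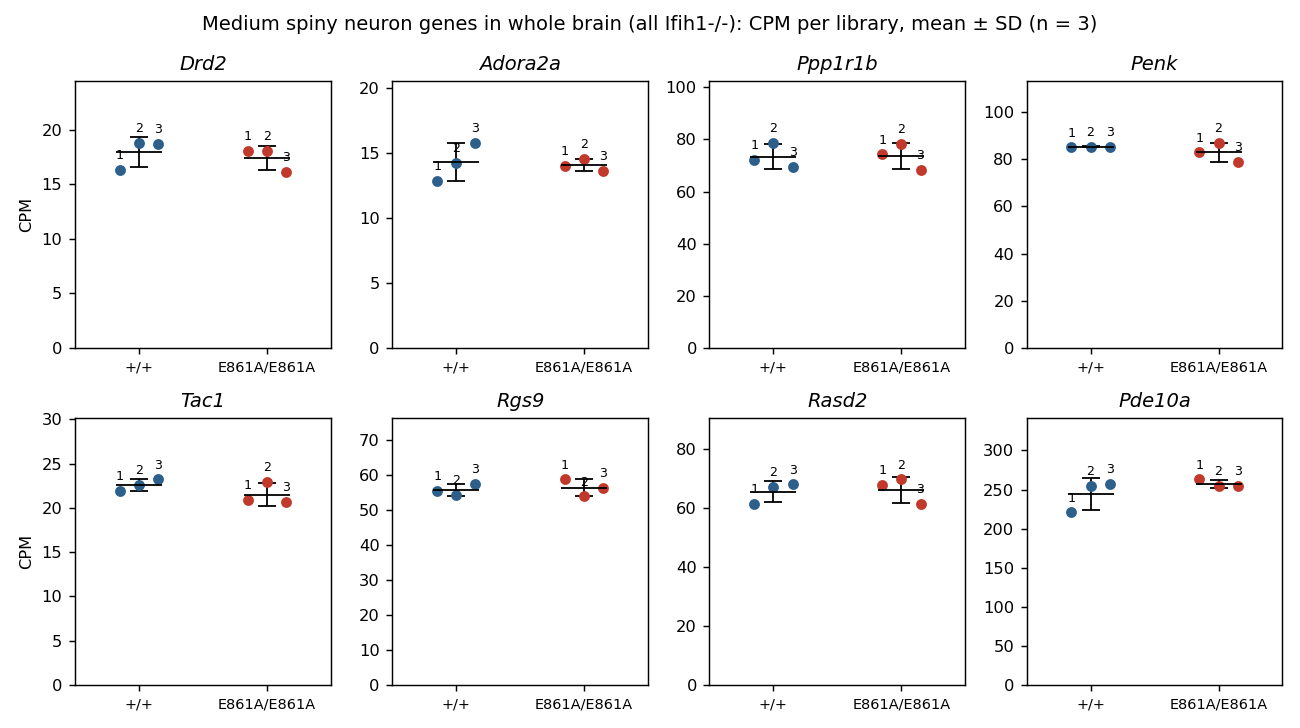
CPM of each member (vertical axis, from 0) in the 3 *Adar1*+/+ (blue) and 3 *Adar1* E861A/E861A (red) libraries, all *Ifih1*-/-. Numbers are replicate numbers, and black marks show the mean ± SD. The genotypes overlap in 8 of 8 panels, and *Pde10a* has 1 low control library at 221 CPM.

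Levels of different genes were compared per length, as CPM per kilobase of exon, with the union of a gene's annotated exons as its length. *Penk* was the most abundant member at 52.2 ± 0.12 in the control and 50.7 ± 2.52 in the mutant (n = 3 each). *Ppp1r1b* followed at 25.1 ± 1.64 and 25.2 ± 1.71, and its lowest library, at 23.4, was above the highest of every scarcer member. *Tac1*, *Rasd2* and *Pde10a* came next, with control means of 21.9, 20.6 and 19.4. The ranges of these neighbours over the 6 libraries overlapped, from 17.5 for the lowest *Pde10a* library to 22.5 for the highest *Tac1* library, so their order was not resolved. In the mutant the means of *Tac1*, *Rasd2* and *Pde10a* were 20.8, 20.8 and 20.4. *Rgs9* was at 8.72 ± 0.26 in the control, *Drd2* at 7.05 ± 0.55 and *Adora2a* at 5.65 ± 0.58, and the ranges of these 3 did not overlap. The annotated exons of *Pde10a* cover 12598 bases and those of *Tac1* 1034, so levels per length depend on which exons a transcript uses.

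**Figure D2:**
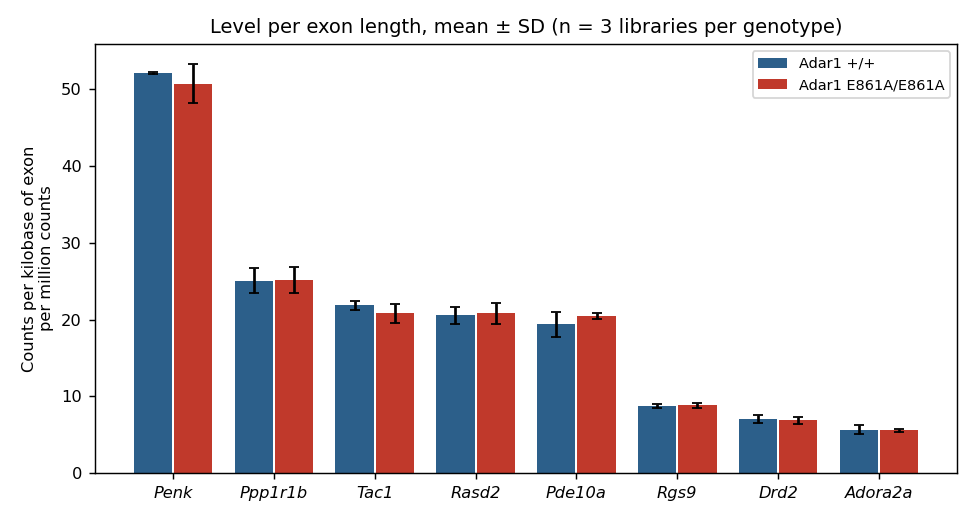
Mean level of each member in CPM per kilobase of exon (vertical axis), with bars for the SD over 3 libraries, in *Adar1*+/+ (blue) and *Adar1* E861A/E861A (red) brain. *Penk* exceeds 50 in both genotypes and *Adora2a* is the lowest at 5.65 and 5.56.

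The coefficient of variation of CPM was 3.36% for *Rgs9* and 3.45% for *Penk*, between 4.89% and 6.55% for *Tac1*, *Rasd2*, *Ppp1r1b*, *Pde10a* and *Drd2*, and 6.94% for *Adora2a*. *Adora2a* and *Drd2* had the fewest counts per library, 366 to 565 and 434 to 716, against 6825 to 9677 for *Pde10a*. Counting noise was not separated from other variation, so the order of the genes can reflect their counts. The highest library exceeded the lowest by a factor of 1.09 for *Rgs9* to 1.23 for *Adora2a*. On the log2 scale after TMM scaling, 95.2% of all tested genes had a larger SD over the 6 libraries than *Rgs9*, and 79.9% a larger one than *Penk*. For the other 6 members this share was between 36.6% and 55.4%, near the middle of all tested genes. The tested genes were not matched to the members in level, so these shares can reflect counts as well. They do not show that *Rgs9* or *Penk* was steadier than other genes of similar level.

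Each genotype held libraries that were high and libraries that were low for most members. The median deviation of the 8 members from their own means was 0.061 in mutant replicate 2, 0.046 in control replicate 2 and 0.040 in control replicate 3 on the log2 scale, and 7 of 8 members were above their mean in each of these. It was -0.0064 in mutant replicate 1. In mutant replicate 3 it was -0.079 with 2 of 8 members above their mean, and in control replicate 1 it was -0.082 with 0 of 8. *Rgs9* was the member below its mean in replicate 2 of both genotypes, and *Rgs9* and *Pde10a* were the 2 above it in mutant replicate 3.

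**Figure D3:**
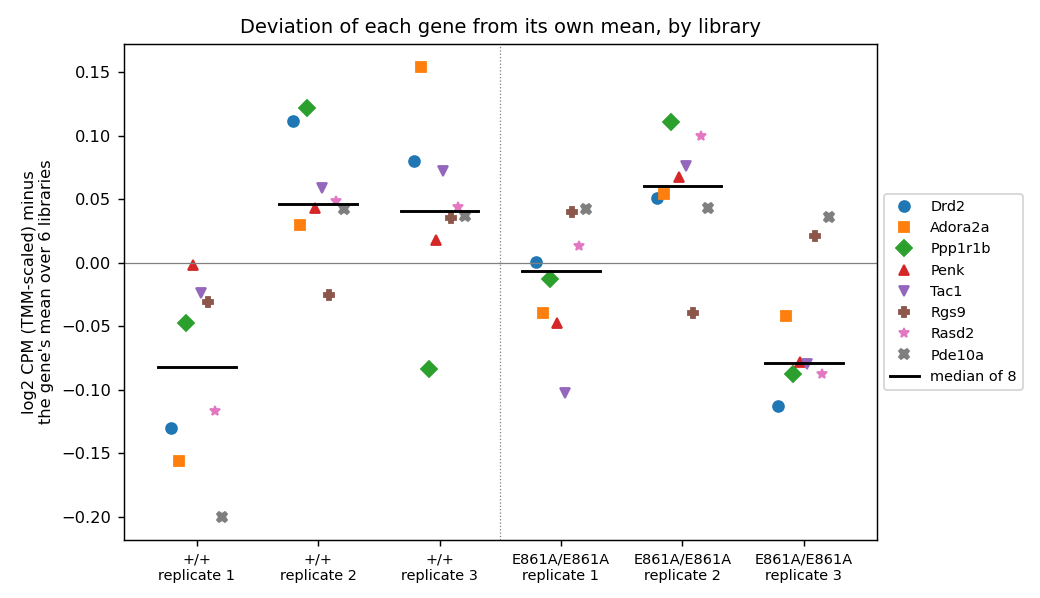
Deviation of log2 CPM (TMM-scaled) from the gene's mean over 6 libraries (vertical axis) for each member by library, with the median of the 8 as a black line. Control replicate 1 and mutant replicate 3 are the low libraries, at medians of -0.082 and -0.079.

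Other genes of medium spiny neurons were read from lists of direct-pathway genes, indirect-pathway genes, dopamine and cAMP signalling, transcription factors and other striatum-enriched genes. Of 36 listed genes, 35 were found and tested, and *Gpr52* was not matched. None passed the adjusted threshold in either direction in edgeR's quasi-likelihood test, 2 had an unadjusted p under 0.05, and none passed the adjusted threshold in DESeq2, limma-voom or edgeR's likelihood ratio test. The median log2 fold change was 0.011 for these 35 genes, -0.0068 for the 8 members and -0.001 for all tested genes. The estimates were positive for 19 of the 35.

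The direct-pathway list held 7 tested genes, 2 of them with a positive estimate. *Drd1*, the D1 dopamine receptor that raises cAMP, was at 35.1 ± 2.77 CPM in the mutant and 32.7 ± 1.86 CPM in the control (n = 3 each), or 0.10 ± 0.064 (SE) higher on the log2 scale (adjusted p 0.670). The ratio of *Drd1* to *Drd2* counts was 2.12, 1.91 and 2.03 in mutant libraries and 1.87, 1.79 and 1.81 in control libraries. The lowest mutant ratio was above the highest control ratio, although neither gene passed the test by itself, and the ratio was chosen among these results and was not tested. *Pdyn*, the precursor of dynorphin, had a log2 fold change of 0.031 ± 0.096 (SE). The estimate largest in size was that of *Chrm4*, the M4 acetylcholine receptor, at -0.13 ± 0.089 (SE; adjusted p 0.690), a gene whose exons overlap *Mdk* on the opposite strand. It was -0.040 without *Adar1*+/+ replicate 1 and -0.23 without *Adar1*+/+ replicate 2 (adjusted p 0.342). In the indirect-pathway list, with 2 tested genes, the orphan receptor gene *Gpr6* had the larger estimate, 0.073 ± 0.12 (SE), which was 0.012 without E861A/E861A replicate 1, 0.018 without E861A/E861A replicate 2 and 0.17 without E861A/E861A replicate 3.

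The signalling list held 11 genes with estimates from -0.061 to 0.13, of which 10 were positive and none was called. *Gnal* encodes the G protein subunit that couples the D1 dopamine receptor and the adenosine receptor of the indirect pathway to adenylyl cyclase. It was at 195 ± 7.36 CPM in the mutant and 195 ± 5.05 CPM in the control (n = 3 each; log2 fold change 0.0036 ± 0.047, SE). *Adcy5*, the adenylyl cyclase of the striatum, differed by 0.021 ± 0.047 (SE) on the log2 scale. *Arpp21*, a cAMP-regulated phosphoprotein gene, had the largest estimate of this list, 398 ± 19.2 CPM against 363 ± 23.02 CPM (log2 fold change 0.13 ± 0.049, SE; adjusted p 0.447), with overlapping ranges and a higher mutant value in 3 of 3 pairs of the same replicate number. The replicate numbers are not known to pair the libraries. With the number as a block in edgeR's quasi-likelihood test, the adjusted p of *Arpp21* was 0.0719. That setting also raised the calls over all genes from 69 to 158. Genes of the opposite strand overlap exons of *Gnal* (*Mppe1*) and *Arpp21* (*2900079G21Rik*).

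Among the 8 transcription factors, *Rarb*, a retinoic acid receptor, had the largest estimate of all 35 genes. It was at 20.1 ± 1.25 CPM in the mutant and 17.3 ± 0.88 CPM in the control (n = 3 each), which is 0.21 ± 0.067 (SE) on the log2 scale (adjusted p 0.329). *Rarb* and the signalling gene *Rgs4* were the 2 of 35 whose CPM ranges did not overlap between genotypes, both higher in the mutant, where 13.8% of all tested genes did not overlap. *Bcl11b*, a factor required for medium spiny neuron differentiation, differed by -0.016 ± 0.050 (SE). In the list of 7 other striatum-enriched genes the estimates were between -0.054 for *Tmem158* and 0.038.

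**Figure D4:**
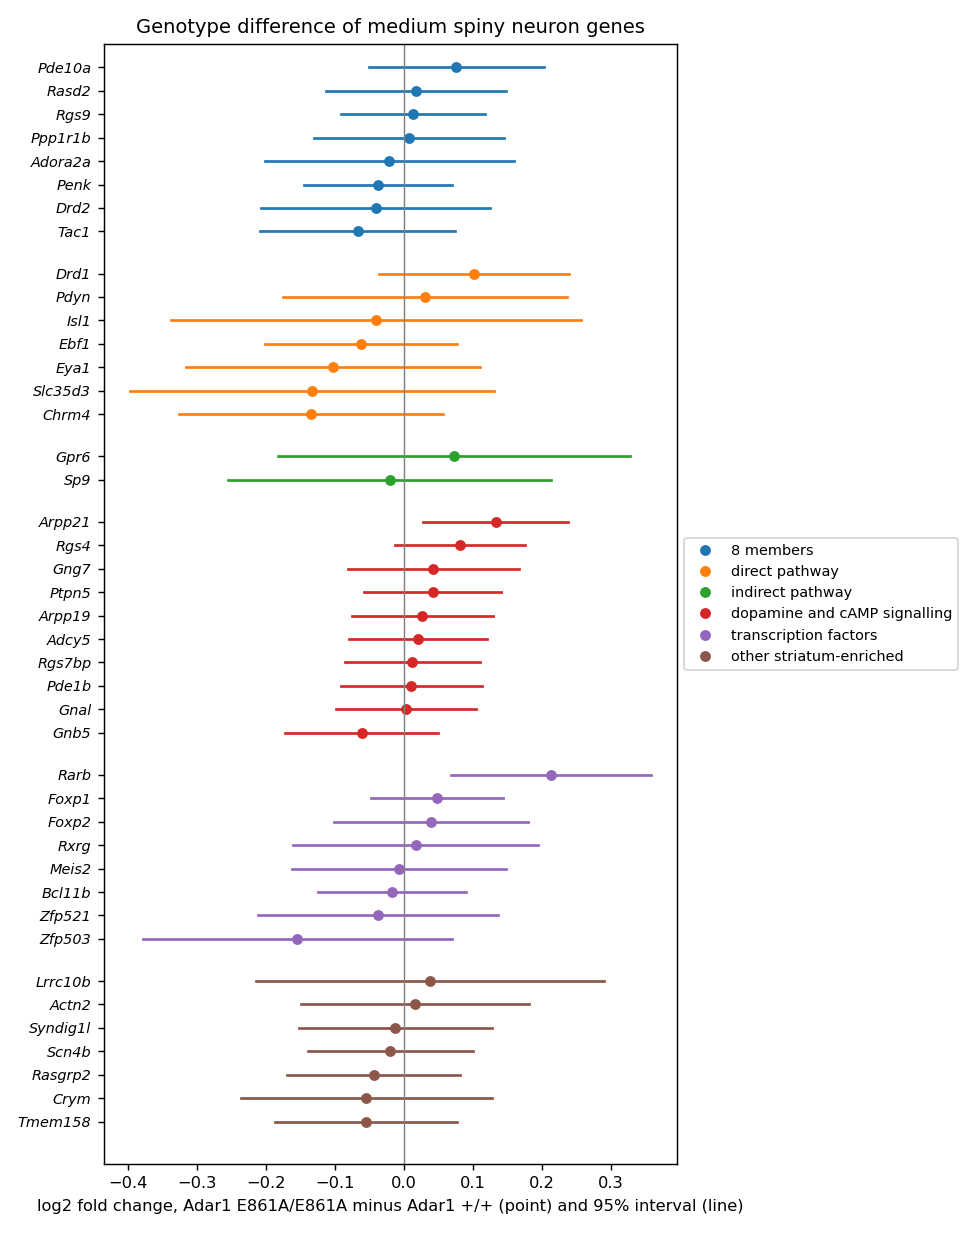
Log2 fold change of *Adar1* E861A/E861A against *Adar1*+/+ (horizontal axis; positive is higher in the mutant) for the 8 members and the other medium spiny neuron genes that are reported, with 95% intervals as lines. The intervals of all 8 members include 0, and those of *Arpp21* and *Rarb* do not, at adjusted p of 0.447 and 0.329.

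Genes of other cell types and regions were summed per library to set the members beside them. The 8 members summed to 569 to 600 CPM in the mutant and 546 to 596 CPM in the control, and stayed within 93.4% to 102.6% of their mean over 6 libraries. *Pde10a* was the largest part of this sum, at a mean of 257 CPM in the mutant and 244 CPM in the control. The lowest sum, 546 CPM in *Adar1*+/+ replicate 1, was in the library where *Pde10a* was low at 221 CPM. Lists for the thalamus (79.0% to 110.2%), olfactory bulb (68.6% to 127.1%) and choroid plexus (63.7% to 118.4%) spread more widely. Lists for all neurons (96.9% to 101.4%), oligodendrocytes (96.1% to 104.3%) and microglia (95.1% to 104.0%) spread about as much as the members or less. The choroid plexus list summed to 219 to 330 CPM in the mutant and 388 to 408 CPM in the control without overlap, and its leading gene *Ttr* differed by -0.51 ± 0.12 (SE) on the log2 scale (adjusted p 0.124). The lowest sum was in E861A/E861A replicate 1, the library with high pituitary genes, and replicates 2 and 3 were at 316 and 330 CPM. The same library held the lowest thalamus sum, 163 CPM against 207 to 227 CPM in the other libraries. The astrocyte list was at 5129 to 5355 CPM in the mutant and 4495 to 4727 CPM in the control, and the list of genes of all neurons at 3704 to 3838 and 3862 to 3874 CPM. Most of the astrocyte sum was *Slc1a2*, a glutamate transporter gene (4165 ± 84.8 and 3630 ± 125 CPM, n = 3 each; adjusted p 0.261), and the other 5 astrocyte genes overlapped between genotypes. The striatal interneuron list was at 199 to 227 CPM in the mutant and 232 to 237 CPM in the control, and none of these 3 lists overlapped between genotypes either. No gene of these lists was called, and their part in the values of the members was not tested.

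**Figure D5:**
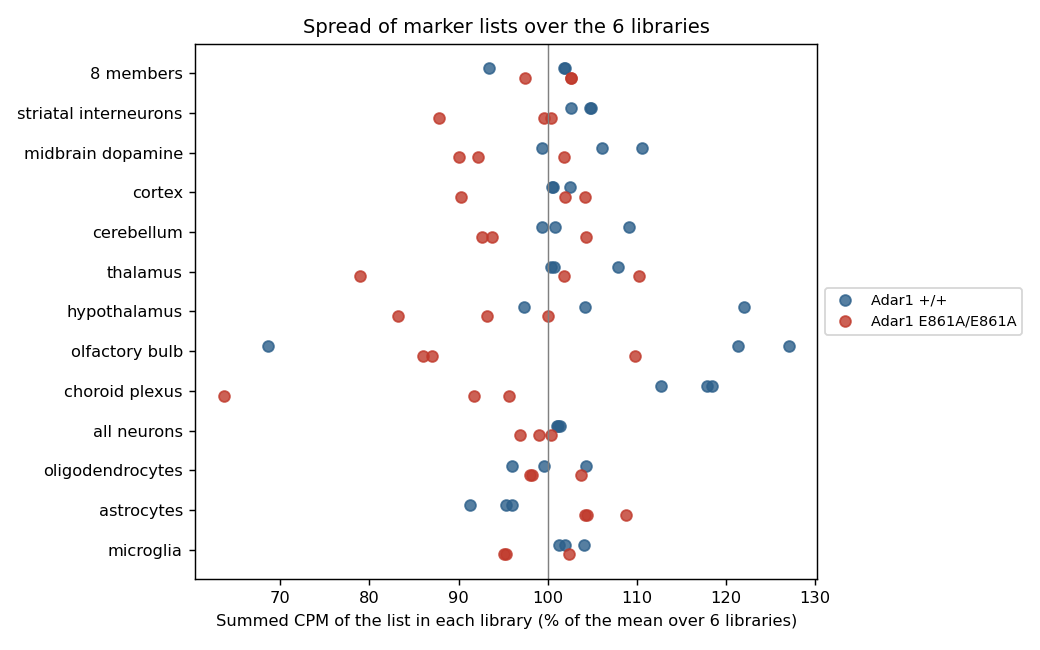
Summed CPM of the members and of 12 marker lists (the pituitary list is left out) in each library, as a percentage of the list's mean over 6 libraries (horizontal axis), for *Adar1*+/+ (blue) and *Adar1* E861A/E861A (red). The 8 members, with *Pde10a* as the largest part of their sum, stay within 93.4% to 102.6%. The choroid plexus list is lower in the 3 mutant libraries than in the 3 control libraries.

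By the smallest root mean square difference from the members' median profile over the 6 libraries, the 10 tested genes most like the members were *Hspa8*, *Sel1l*, *Extl3*, *Ubqln1*, *Chst11*, *6330403K07Rik*, *Chp1*, *Enah*, *Pcsk1n* and *Ubfd1*, at 0.013 to 0.0175 on the log2 scale. None was on a list of medium spiny neuron genes. The nearest listed gene was *Gnal*, at rank 14 of 13641, followed by *Bcl11b* at rank 63 and *Adcy5* at rank 135. *Drd1* was at rank 4176, with a difference of 0.0755. The members themselves were not ranked. Single members also depart from their median, as *Rgs9* did in replicate 2 of both genotypes, so a large difference does not set a gene apart from each member.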

How the data were processed

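Ribosome-depleted whole-brain RNA was sequenced as 75-bp paired-end stranded libraries. The authors aligned reads to NCBIM37 (mm9) with STAR and counted them per gene. Trimmomatic 0.36 and STAR 2.5.2a are named in the submitters' processing notes. The deposited counts were used unchanged. The deposited CPM tables, scaled by the authors to the total over 13891 retained genes, were identical to each other and matched the counts. A further deposited table with the authors' own fold changes and false discovery rates was not used. The strand setting of the counting is not given in the sources used here, and exons of *Penk* and *Ppp1r1b* overlap genes of the opposite strand, which held 5 to 48 counts per library.

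CPM was computed from column totals. A gene was tested if all 3 libraries of one genotype reached a CPM of 2, using R 4.3.3 and edgeR 4.0.16 (TMM factors 0.985 to 1.02, quasi-likelihood test, no covariates) and the Benjamini-Hochberg adjustment over all 13649 genes. The script was tested on simulated counts. SEs were the log2 fold change divided by the square root of F, and 95% intervals used the moderated degrees of freedom. Coordinates and exon lengths are from GENCODE vM1, which held all 37310 identifiers. Libraries were grouped by their titles. Alternatives were RLE factors, column totals, other filters, DESeq2 1.42.0, limma-voom (limma 3.58.1), the likelihood ratio test, a replicate block and leaving out single libraries. The members and lists were chosen with earlier results of these data known. Named genes are the members, *Drd1*, *Pdyn*, *Adcy5*, *Gnal*, *Bcl11b*, the largest estimate of each list, any gene past the threshold, and the 10 genes most like the members. *Rgs4*, *Mbp*, *Snap25*, *Slc1a2* and *Ttr* were named after their values were seen. A further gene of the signalling list enters the counts but is not reported here.

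As a check of pairing, each library's deviation from its genotype mean was correlated over genes with those of the other genotype. The correlations were 0.221, 0.329 and 0.112 for equal replicate numbers and -0.255 to 0.0523 for unequal ones. The deviations within a genotype sum to 0 and so depend on each other, and these values cannot show that the numbers pair libraries. Comparisons by replicate number are therefore descriptive, and the reported test used no block. What the numbers stand for is not given in the sources used here.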

Additional observations from a re-analysis of the deposited data

How the results depend on the processing

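No member was called in any of 14 alternative settings, and the lowest adjusted p of a member was 0.426 (*Tac1*, without E861A/E861A replicate 2). Of 112 member estimates under the alternatives, 102 kept their direction. The 10 that turned reached from -0.051 (*Ppp1r1b* without E861A/E861A replicate 2) to 0.053 (*Adora2a* without *Adar1*+/+ replicate 3). *Ppp1r1b* also turned, to -0.0029, without a CPM filter. Over the omission of each library *Ppp1r1b* ran from -0.051 to 0.073, *Drd2* from -0.11 to 0.0062 and *Adora2a* from -0.098 to 0.053. *Rgs9* ran from -0.0055 to 0.036 and *Rasd2* from -0.032 to 0.064. Of the other named genes, *Gnal* gave -0.0069 without a filter and -0.0034 with filterByExpr, and over the omissions *Gnal* ran from -0.030 to 0.026, *Pdyn* from -0.062 to 0.15, *Adcy5* from -0.017 to 0.045 and *Bcl11b* from -0.064 to 0.014. The directions of *Penk*, *Tac1*, *Pde10a* and *Drd1* held throughout, but leaving out single libraries moved their sizes by over 1.5 times: *Penk* from -0.084 (without E861A/E861A replicate 2) to -0.0086 (without E861A/E861A replicate 3), *Tac1* from -0.13 (without E861A/E861A replicate 2) to -0.035 (without E861A/E861A replicate 1), *Pde10a* from 0.0027 (without *Adar1*+/+ replicate 1) to 0.12 (without *Adar1*+/+ replicate 2) and *Drd1* from 0.049 (without *Adar1*+/+ replicate 1) to 0.14 (without E861A/E861A replicate 3). The other medium spiny neuron genes gave 0 calls in each setting, with a lowest adjusted p among the named ones of 0.0719 for *Arpp21* under the replicate block. Calls over all genes, 69 in the reported test, were 376 without a filter, 110 with filterByExpr, 139 by the likelihood ratio test and 158 with the replicate block, and 42 to 113 over the omissions (42 without E861A/E861A replicate 3, 113 without E861A/E861A replicate 2, 108 without *Adar1*+/+ replicate 2). Higher calls were 81.2% of calls in the reported test, 58.0% without a filter, 64.7% by the likelihood ratio test and 65.2% with the block. The cause was not tested. The replicate block changed no call among the members.

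Intervals of the members reached from -13.4% (*Tac1*) to 15.1% (*Pde10a*), and with 3 libraries per genotype differences inside them were not excluded. These intervals are not limits of detection, because larger estimates of other genes also went uncalled in edgeR's quasi-likelihood test. Examples are *Ttr* at -29.9% (adjusted p 0.124) and *Rarb* at 16.0% (adjusted p 0.329). Counts do not show RNA editing, splicing or protein.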

Other observations

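The striatum receives its dopamine from midbrain neurons. Of 6 listed genes of these neurons, 5 were tested and none passed the adjusted threshold in edgeR's quasi-likelihood test, while 2 (*Ddc* and *Nr4a2*) had an unadjusted p under 0.05, against 9.01% of all tested genes. The estimates were positive for 0 of the 5. *Slc6a3*, the dopamine transporter, was at 7.38 ± 1.00 CPM in *Adar1* E861A/E861A and 8.62 ± 0.27 CPM in *Adar1*+/+ brain (SD, n = 3 each), or -0.22 ± 0.11 (SE) on the log2 scale (adjusted p 0.569). *Th*, the first enzyme of dopamine synthesis, was at 9.49 ± 0.30 and 9.56 ± 1.86 CPM (SD, n = 3 each). *Nr4a2*, a transcription factor of dopamine neurons that other neurons also express, was at 35.5 ± 1.58 and 40.5 ± 3.36 CPM (SD, n = 3 each; log2 fold change -0.19 ± 0.061, SE; adjusted p 0.359). Of the striatal interneuron genes, 7 listed and 6 tested, none was called and 0 estimates were positive. The CPM ranges of the genotypes did not overlap for 3 (*Chat*, *Pvalb* and *Nos1*), against 13.8% of all tested genes. The parvalbumin gene *Pvalb* had a log2 fold change of -0.16 ± 0.055 (SE; adjusted p 0.390), the acetylcholine synthesis gene *Chat* -0.31 ± 0.15 (SE; adjusted p 0.574), and the nitric oxide synthase gene *Nos1* -0.14 ± 0.059 (SE; adjusted p 0.511). These genes were named after their values were seen, and several are expressed outside the striatum.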
